A study of Mus musculus with 2 samples.

Results

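The 6 small heat shock protein genes described here are Hspb1, Cryab, Hspb2, Hspb6, Hspb7 and Hspb8, found as 6 of the 55450 gene rows by their symbol. All 6 were present in both single-cell RNA-seq libraries, and each was followed through every cell class, with smooth muscle-like cells set against the others. The family was chosen by the level of Hspb1 in these same libraries, where it had been seen to be high in inhibitor smooth muscle-like cells, so levels and ratios are a description, without a test. The cells came from aortic aneurysm tissue of mice aged 12 weeks. All the mice were Apoe-/-, that is, without apolipoprotein E, and all had an abdominal aortic aneurysm brought on by angiotensin II (Ang II). One library came from tissue under an inhibitor, and the other from tissue under DMSO, a solvent used as the control for such compounds. The titles IN_A and D_A were read as inhibitor and DMSO. For each library the labels give 5 segments and a target of 5000 cells. The sources used here name neither the inhibitor nor its dose, its timing or the number of animals behind a library. With 1 library per group there are no replicates, so no p-value is given. Intervals are exact 95% intervals that cover counting error only.

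Small heat shock proteins share an alpha-crystallin domain and assemble into large oligomers. They bind proteins that begin to unfold, without using ATP, and hold them until ATP-driven chaperones of the HSP70 family refold them or until they are degraded. In muscle they also bind actin, desmin and filamin, and several are targets of kinases that control contraction. Heat shock factor 1, encoded by Hsf1, switches on some of the family under heat or protein damage, and others follow the muscle programme. On GRCm38, with GENCODE M21 annotation, Hspb1 lies at chr5:135887919-135889563 (plus strand), Hspb6 at chr7:30552178-30555443 (plus), Hspb7 at chr4:141420779-141425311 (plus) and Hspb8 at chr5:116408491-116422864 (minus). Transcripts were counted from their 3' end, so levels are compared between classes and libraries and not between genes.

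The inhibitor library held 8149 barcodes with 79648307 UMIs (unique molecular identifiers, each standing for 1 captured transcript), and the DMSO library 9125 barcodes with 101139161 UMIs. After filtering, which also removed cells called doublets (droplets that hold more than 1 cell), 7417 inhibitor and 8411 DMSO cells remained, and 15 of the kept barcodes occurred in both libraries. Clusters were named from marker genes, with the suffix -like because the names rest on markers alone. Smooth muscle-like cells, which give the vessel wall its contraction, were 3148 cells (42.4%) of the inhibitor library and 772 (9.18%) of the DMSO library. All 10 of their markers reached at least 20 CPM (counts per 1000000 UMIs of the class) in both libraries. Markers of striated muscle, which also makes these proteins, summed to 22.3 CPM in inhibitor and 26.7 CPM in DMSO smooth muscle-like cells, and 3 and 5 of the 13 were at 0.

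Across whole libraries, without regard to cell class, all 6 genes were higher in the inhibitor library. The ratio of inhibitor to DMSO CPM was 11.3 for Hspb1, 5.95 for Cryab, 4.17 for Hspb7, 3.70 for Hspb6, 3.12 for Hspb2 and 2.27 for Hspb8. At this level the ratio was 4.55 for Acta2, smooth muscle actin, and 5.23 for Myh11, smooth muscle myosin. Smooth muscle-like cells supplied 93.4% of the inhibitor library's Hspb1 UMIs and 44.0% of the DMSO library's. For Hspb8 the smooth muscle-like share of all UMIs was 78.6% for inhibitor and 19.6% for DMSO. A difference over a whole library cannot be told apart from a difference in the number of smooth muscle-like cells, and the comparisons were therefore made within classes.

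In both libraries 5 of the genes were highest in smooth muscle-like cells among the 10 classes that had 50 cells or more on each side, and Cryab was highest in Schwann-like cells, which ensheath peripheral nerves. Hspb1, an actin-binding chaperone, reached 12569.5 CPM in inhibitor and 2167 CPM in DMSO smooth muscle-like cells. Its next class was endothelial-like, the lining of vessels, with 2174 CPM in inhibitor cells and 722 CPM in DMSO cells. Against all other named cells together, smooth muscle-like cells had 14.2-fold the level in the inhibitor library and 5.65-fold in the DMSO library. Hspb1 was lowest in dendritic-like cells, at 147 CPM and 34.9 CPM in the same 2 libraries. In the DMSO library the intervals of endothelial-like (703 to 741 CPM) and adipocyte-like cells (678 to 705 CPM) overlapped, so that these 2 could not be ordered at this depth.

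Hspb7, a family member of heart and vessel muscle, stood furthest apart from its next class. It had 338 CPM in inhibitor smooth muscle-like cells, 10.998-fold the 30.7 CPM of fibroblast-like cells. In the DMSO library it had 281 CPM, 16.6-fold the 16.97 CPM of Schwann-like cells. Hspb6, a target of cyclic nucleotide-dependent kinases in smooth muscle relaxation, had 123 CPM in inhibitor and 92.1 CPM in DMSO smooth muscle-like cells, and 24.1 and 15.5 CPM in adipocyte-like cells, its next class. Relative to all other named cells, Hspb7 was 14.9-fold and Hspb6 16.2-fold in inhibitor smooth muscle-like cells, and 28.1-fold and 12.6-fold in DMSO ones. Hspb8, which works with the co-chaperone Bag3 in clearing damaged muscle proteins, was spread more widely. It had 200.3 CPM in inhibitor smooth muscle-like cells, above 116 CPM in adipocyte-like and 79.5 CPM in fibroblast-like cells. In the DMSO library its 3 leading classes were close together, at 91.0, 81.5 and 75.8 CPM in the same order, and the intervals of neighbours overlapped.

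**Figure D1:**
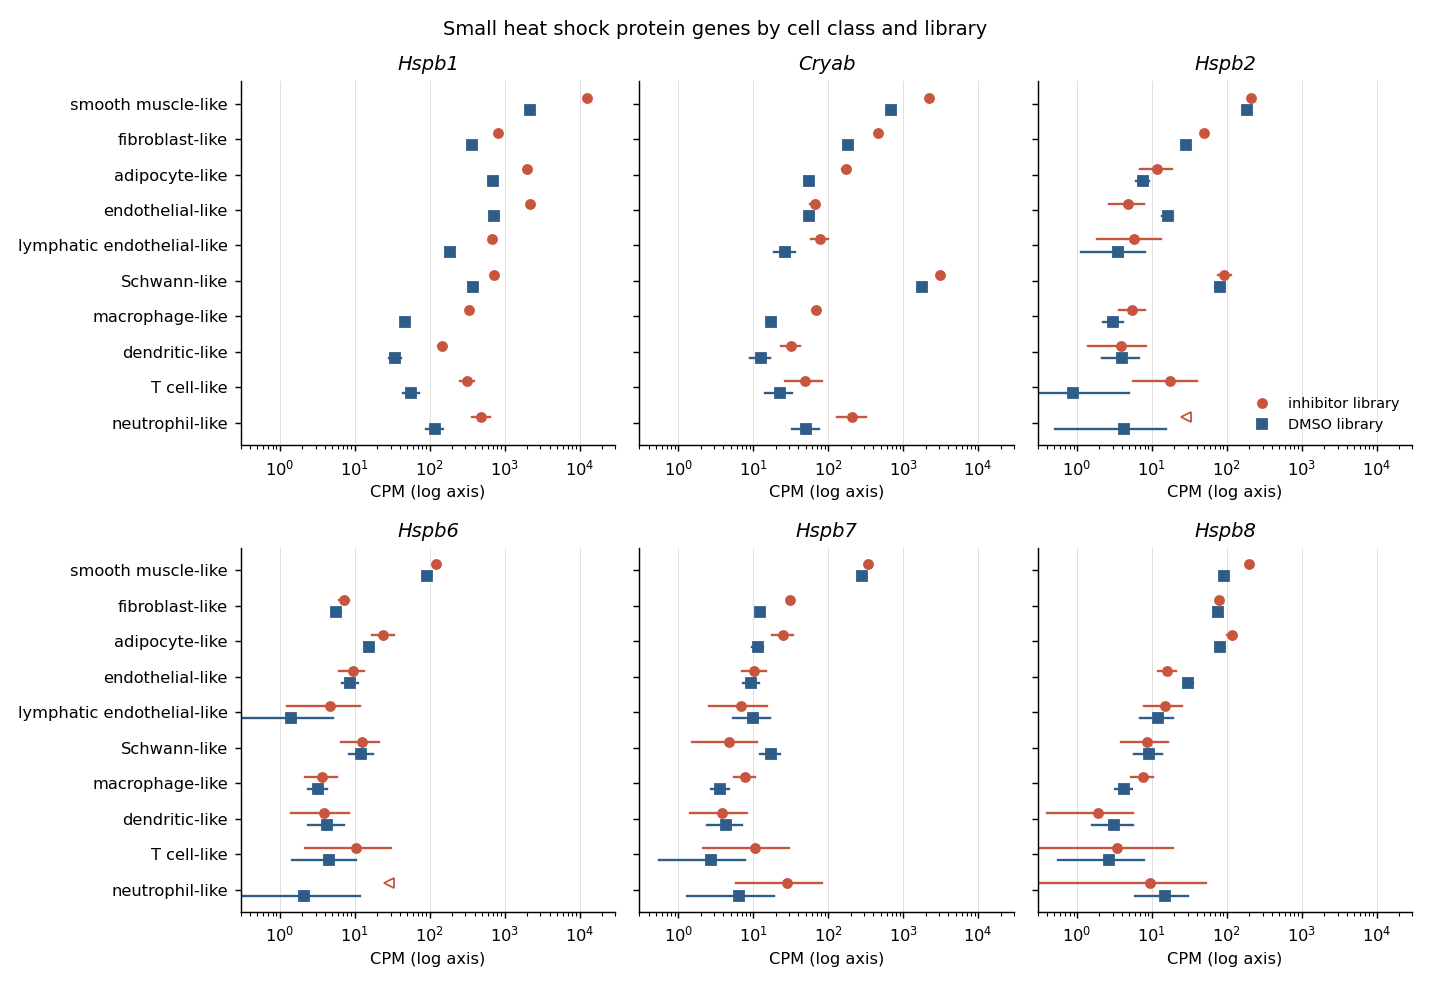
Level of each gene (CPM, log axis) in 10 cell classes, with inhibitor (circles) above DMSO (squares) in each class and bars for exact 95% counting intervals; an open triangle marks the 3-count floor of a class with no UMI. Smooth muscle-like cells lead for 5 genes, Schwann-like cells lead for Cryab at 3061 CPM (inhibitor) and 1776 CPM (DMSO), and for Hspb8 adipocyte-like cells come second, at 116 CPM (inhibitor) and 81.5 CPM (DMSO).

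Cryab and Hspb2, the pair that lies head to head on chromosome 9, had the same 2 leading classes, smooth muscle-like and Schwann-like cells, in opposite order. Cryab encodes alphaB-crystallin, a chaperone of desmin filaments that is abundant in lens and muscle, and Hspb2 a partner of the myotonic dystrophy kinase. Cryab had 3061 CPM in inhibitor and 1776 CPM in DMSO Schwann-like cells, against 2214 and 679.9 CPM in smooth muscle-like cells. Hspb2 had 93.1 CPM in inhibitor and 80.9 CPM in DMSO Schwann-like cells, its second class, against 211 and 187 CPM in smooth muscle-like cells. The GRCm38 annotation places Cryab at chr9:50751325-50756636 on the plus strand and Hspb2 at chr9:50751078-50752354 on the minus strand, so that they share 1030 bases. The sources used here do not say whether reads were counted by strand, so reads from the shared stretch cannot be told apart. Within Schwann-like cells, Cryab was higher in cluster 24, which had Mbp of myelinating glia among its leading genes. It had 7230.3 CPM in inhibitor and 4994 CPM in DMSO cells of cluster 24, against 1936 and 1415 CPM in cluster 12, which was led by Fabp7.

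Within smooth muscle-like cells, inhibitor and DMSO libraries differed unequally over the family. Hspb1, Cryab and Hspb8 were higher in the inhibitor library, and Hspb6, Hspb7 and Hspb2 differed by less than 1.5-fold. A call required a CPM ratio of 1.5-fold or more in either direction, an interval that left out 1, and at least 20 CPM in 1 library with 20 UMIs over both. By this rule 3 of 6 genes were called higher and 0 lower, where 3.44% of the 6228 genes with enough counts were called higher and 8.04% lower. The median log2 ratio, taken after adding 5 CPM, was 0.75 over the 6 genes and -0.04 over all 6228.

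Hspb1 had 12569.5 CPM in inhibitor and 2167 CPM in DMSO smooth muscle-like cells, a ratio of 5.80 (5.73 to 5.87) from 477949 and 25931 UMIs. Hsp25-ps1, a processed copy of Hspb1 on chromosome 13, had 88.6 CPM in inhibitor and 10.3 CPM in DMSO cells (ratio 8.62, 7.2003 to 10.4). Reads of such a copy can come from Hspb1, so its row is uncertain. Cryab had 2214 CPM in inhibitor and 679.9 CPM in DMSO cells, a ratio of 3.26 (3.18 to 3.33). Hspb8 had 200.3 CPM in inhibitor and 91.0 CPM in DMSO cells, a ratio of 2.20 (2.07 to 2.35).

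The 3 genes below the 1.5-fold limit had ratios whose intervals nevertheless left out 1. Hspb6 had 123 CPM in inhibitor and 92.1 CPM in DMSO cells (ratio 1.33, 1.249 to 1.43). Hspb7 had 338 CPM in inhibitor and 281 CPM in DMSO cells (ratio 1.20, 1.16 to 1.248). Hspb2 had 211 CPM in inhibitor and 187 CPM in DMSO cells (ratio 1.13, 1.08 to 1.18). For the 6 contractile genes the ratios ran from 1.24 for Tpm2 (tropomyosin) to 1.63 for Cnn1 (calponin), with 1.35 for Acta2 and 1.49 for Myh11. Hspb6 lay inside that range and Hspb7 and Hspb2 below it. With 1 library per group such differences cannot be set against variation between libraries.

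The stretches upstream of the start sites were read for heat shock elements, the sites bound by heat shock factor, because the 6 genes did not differ alike between libraries. Sequences are the 250 bases before the RefSeq start on GRCm38.p6, in the direction of the gene, with each match to GAANNTTC or TTCNNGAA in capitals. These letters are 2 facing units of the element, and each motif reads the same on both strands. The promoters of 3 genes are shown, that of Hspb1 with the highest ratio in smooth muscle-like cells, that of Hspb8 as the third gene called higher there, and that of Hspb7 as a gene not called.
Hspb1 (chr5:135887669-135887918, plus strand): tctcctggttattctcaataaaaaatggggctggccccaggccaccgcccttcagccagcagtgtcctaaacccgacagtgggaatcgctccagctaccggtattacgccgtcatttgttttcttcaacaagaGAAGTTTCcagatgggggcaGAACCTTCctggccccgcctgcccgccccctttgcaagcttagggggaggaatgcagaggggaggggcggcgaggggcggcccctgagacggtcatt
Hspb8 (chr5:116422865-116423114, minus strand): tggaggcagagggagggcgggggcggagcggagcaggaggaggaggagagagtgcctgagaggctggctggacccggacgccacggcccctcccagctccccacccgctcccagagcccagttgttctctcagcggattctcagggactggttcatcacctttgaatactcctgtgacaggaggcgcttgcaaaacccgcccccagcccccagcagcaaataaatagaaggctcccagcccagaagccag
Hspb7 (chr4:141420529-141420778, plus strand): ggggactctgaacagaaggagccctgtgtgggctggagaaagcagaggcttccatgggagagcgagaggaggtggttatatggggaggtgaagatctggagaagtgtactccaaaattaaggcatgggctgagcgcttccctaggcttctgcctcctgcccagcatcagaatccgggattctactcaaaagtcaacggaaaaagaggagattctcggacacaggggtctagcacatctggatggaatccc

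In the Hspb1 stretch 2 matches were found, GAAGTTTC at -117 to -110 and GAACCTTC at -97 to -90 from the start. Among all 32851 RefSeq promoters of this length, 12.8% held at least 1 of the 2 motifs. The Hspb8 and Hspb7 stretches held none. Hspb6 has 2 entries, of which one held GAAGTTTC at -120 to -113 and the other held none. No entry for Cryab or Hspb2 was found in the table used. A run of 3 facing units (GAANNTTC followed by NNGAA, or TTCNNGAA followed by NNTTC) was in 0.466% of all promoters and in none of these. The CArG box, the site of serum response factor at contractile genes, was in 1.47% of all promoters and in none of these. In the same search Hspa1a, Hspa1b and each entry of Hsph1 held 1 match, and Bag3 and both entries of Dnajb1 held none. A match here is a description of letters and no site of binding, and a missing match is no evidence that a site is absent.

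Depth and quality of the smooth muscle-like cells differed between the libraries. Their median was 11199 UMIs in inhibitor and 14168.5 UMIs in DMSO cells, with 4.86% and 5.68% mitochondrial UMIs. Fibroblast markers summed to 3781 CPM in inhibitor and 9744 CPM in DMSO smooth muscle-like cells, with 0 of 10 markers at 0 in both. The part of these differences in the ratios was not tested.

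The smooth muscle-like cells fell into 3 clusters of different weight in the libraries. Cluster 0, led by Sost and Mylk4, held 66.1% of inhibitor and 32.8% of DMSO smooth muscle-like cells. Cluster 3, led by Igfbp2 and Sorbs2, held 18.6% and 55.3%, and cluster 9, with Hspb1 and Hspa1a among its leading genes, held 15.3% and 11.9%. Hspb1, Cryab and Hspb8 were called higher in each of the 3 clusters. The Hspb1 ratio was 4.45 in cluster 0, 5.86 in cluster 3 and 6.59 in cluster 9. For Cryab the ratios were 2.91, 4.14 and 4.93 in the same order, and for Hspb8 1.88, 1.89 and 2.88. The clusters were drawn without these genes, since the markers and the genes of the lists were left out of the clustering. Leading genes were picked for their fold over all other cells and are given as description. Hspb6 crossed the limit in cluster 9 alone, at 123 CPM in inhibitor and 78.2 CPM in DMSO cells (ratio 1.57, 1.15 to 2.19; 44 UMIs in the DMSO library). With both libraries weighted to the cluster makeup of the DMSO library, the ratios were 5.36 for Hspb1, 3.77 for Cryab and 1.999 for Hspb8.

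**Figure D2:**
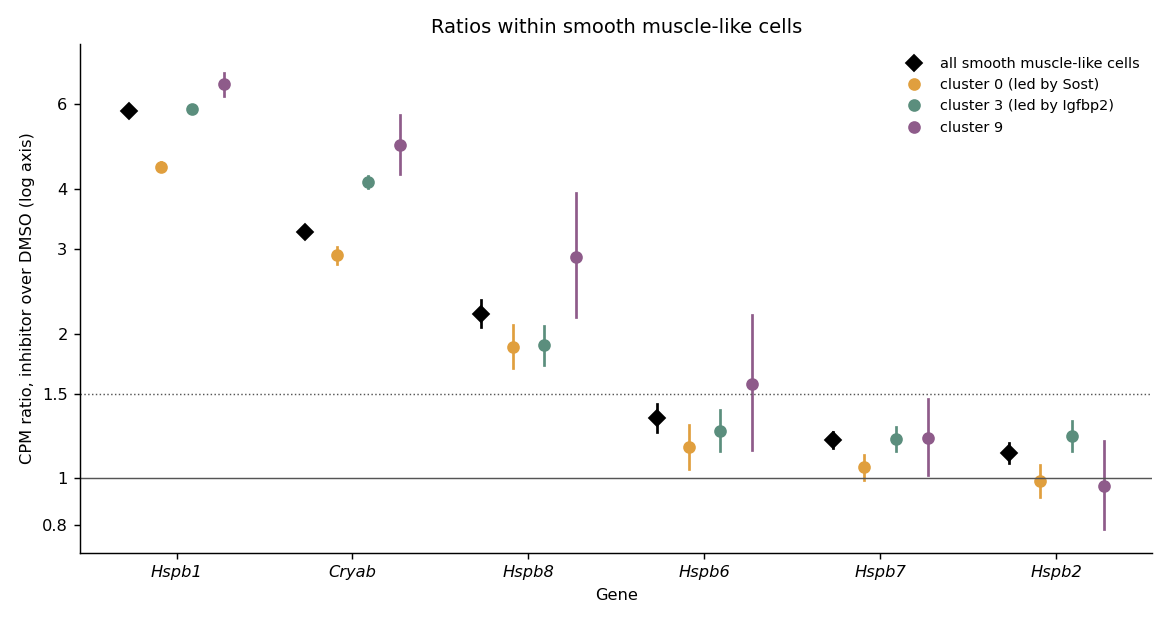
Ratio of inhibitor to DMSO CPM (log axis) of each gene in all smooth muscle-like cells (diamonds) and in each of their 3 clusters (circles), with exact 95% counting intervals, a solid line at 1 and a dotted line at 1.5. Hspb1 (4.45 to 6.59 over clusters), Cryab (2.91 to 4.93) and Hspb8 (1.88 to 2.88) lie above the dotted line in every cluster, and Hspb7 and Hspb2 below it.

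Cell by cell, the higher Hspb1 level was spread through the smooth muscle-like cells and was not held by a few of them. Cells were compared at 2000 UMIs each, by drawing that number from each cell and leaving out shallower cells (95 inhibitor and 32 DMSO cells). The median inhibitor cell then held 19 Hspb1 UMIs, against 3 in the median DMSO cell. The 5th and 95th percentiles were 2 and 75 UMIs in inhibitor cells, against 0 and 16 in DMSO cells. At least 10 Hspb1 UMIs were held by 70.3% of inhibitor and 12.0% of DMSO cells. For Cryab the median was 2 UMIs in inhibitor and 1 in DMSO cells, and the 95th percentile 15 and 4. At this depth the expected share of cells with an Hspb1 UMI was 98.6% (98.1 to 98.98%) in inhibitor and 84.8% (82.1 to 87.4%) in DMSO smooth muscle-like cells.

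Shares for the other genes followed the levels. The expected share with a Cryab UMI was 84.5% in inhibitor and 61.8% in DMSO smooth muscle-like cells. The Hspb8 share was 31.5% against 16.6%, and the Hspb7 share 46.6% against 39.7%. For Hspb6 it was 21.1% in inhibitor (19.7 to 22.6%) and 16.2% in DMSO cells (13.6 to 19.1%), and for Hspb2 33.1% (31.4 to 34.8%) and 30.6% (27.2 to 34.0%), the only gene whose intervals overlapped. T cell-like cells, where free RNA can supply such counts, had an Hspb1 UMI in 47.5% of inhibitor and 10.9% of DMSO cells at the same depth. Their median depth was 4008 UMIs in inhibitor and 4047.5 UMIs in DMSO cells. In the DMSO library their Hspb1 level was 2.17-fold what smooth muscle RNA would carry (1.67 to 2.78, 63 UMIs). In the inhibitor library it was 1.13-fold (0.911 to 1.39, 91 UMIs). RNA set free from other classes is not part of that estimate, and the source of these shares was not tested. Without thinning, the shares in smooth muscle-like cells were 99.4% in inhibitor and 97.5% in DMSO cells for Hspb1, 98.0% and 92.4% for Cryab, and 78.3% and 63.9% for Hspb8. For Hspb7 they were 89.6% in inhibitor and 81.6% in DMSO cells, for Hspb6 64.8% and 61.1%, and for Hspb2 82.4% and 83.0%, the one gene with the higher unthinned share in DMSO cells. The unthinned Hspb1 share in T cell-like cells was 70.1% in inhibitor and 20.4% in DMSO cells.

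Genes of the family differed unequally among cells of 1 cluster. Cells of cluster 0 were ranked by their Hspb1 UMIs at equal depth and cut into 4 bands of 519 inhibitor cells each and of 63 or 64 DMSO cells each. From the lowest to the highest band of inhibitor cells, Hspb1 itself stood at 2583, 6702, 13606 and 29296 CPM, and in DMSO cells at 847, 1292, 2282 and 6714 CPM. Cryab stood at 736, 1114, 2143 and 4183 CPM in the inhibitor bands, and at 429.8, 495, 598 and 1195 CPM in the DMSO bands. Hspb8 stood at 120.5, 154, 218 and 353 CPM in the inhibitor bands, and at 72.6, 123, 103 and 144 CPM in the DMSO bands.

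Hspb2 and Hspb6 ran the other way in the inhibitor library. Hspb2 had 244, 222, 218 and 172 CPM in the inhibitor bands, against 202, 208, 223 and 236 CPM in the DMSO bands, whose intervals overlapped throughout. Hspb6 had 144, 140.1, 126 and 106 CPM in the inhibitor bands, against 114, 118, 119 and 94.9 CPM in the DMSO bands. Hspb7 differed little until the highest band of inhibitor cells, with 328, 334, 341 and 411 CPM, against 341, 349, 349.7 and 302 CPM in DMSO cells. Hspa1a, the heat-inducible HSP70 gene, stood at 754, 1990.0, 3601 and 6563 CPM in the inhibitor bands and at 283, 257, 517 and 1301 CPM in the DMSO bands. Between the lowest and the highest inhibitor band, Acta2 differed little (18899 and 21148 CPM), as did Myh11 (4973 and 4295 CPM). Bands are cells of 1 library and no replicates.

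**Figure D3:**
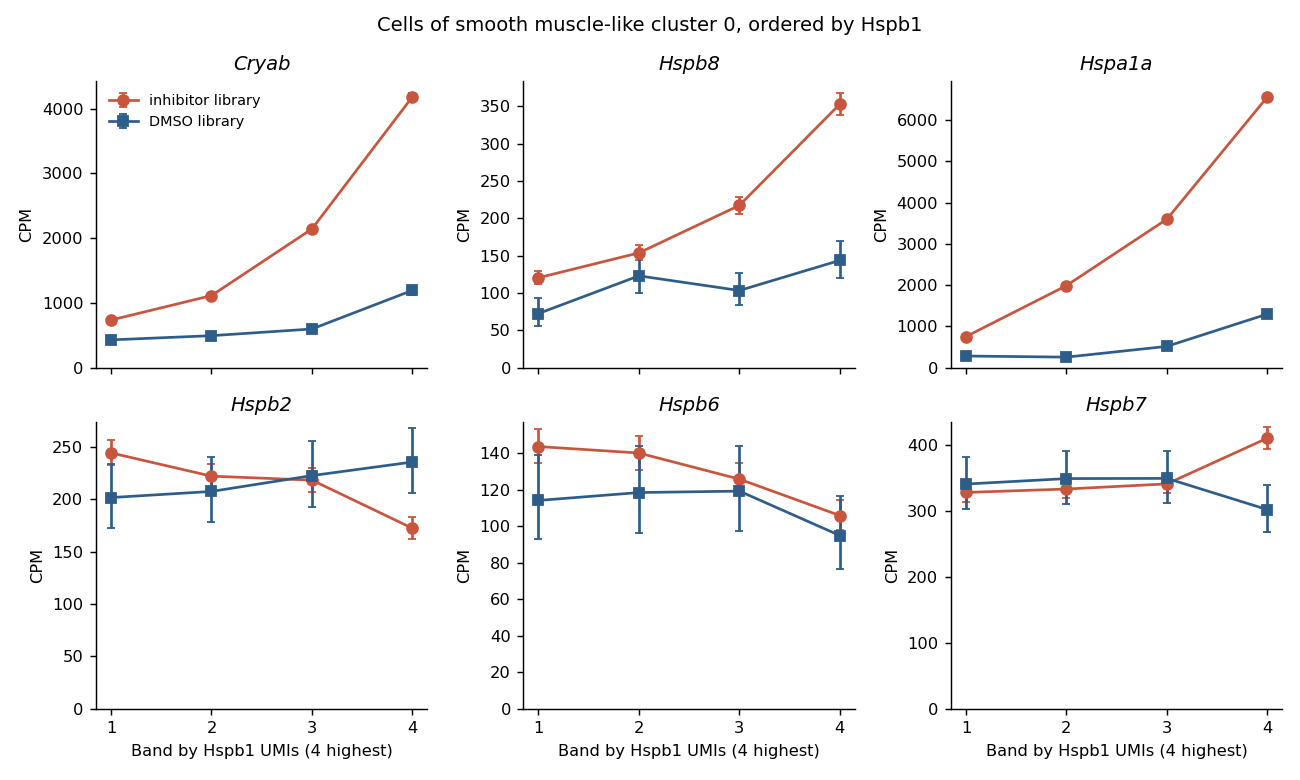
CPM of 5 small heat shock protein genes and of Hspa1a in 4 bands of cluster 0 cells ranked by Hspb1 UMIs (1 lowest, 4 highest), for the inhibitor (circles) and DMSO (squares) library, with exact 95% counting intervals. Cryab, Hspb8 and Hspa1a climb with Hspb1, to 4183, 353 and 6563 CPM in the top inhibitor band, while Hspb2 and Hspb6 are lowest there, at 172 and 106 CPM.

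Comparisons were made in 5 further classes, those of 100 or more cells per library, and Hspb1 was called higher in each as measured. After subtraction of the level that smooth muscle RNA would carry, described further on, it remained called in 2 of them, macrophage-like and endothelial-like, and not in fibroblast-like, Schwann-like or dendritic-like cells. The subtraction was made on whole classes, and clusters within those 2 classes differed, as given further on. Calls after subtraction rest on the limits of 1.5-fold and 20 CPM alone, without an interval or a minimum of UMIs. Over these 5 classes, 11 gene and class pairs were called higher and 1 lower as measured. Enough counts were held by 5 genes in fibroblast-like, 3 each in endothelial-like and Schwann-like, and 2 each in macrophage-like and dendritic-like cells. Among all genes with enough counts, 3.19% to 5.43% per class were called higher and 4.01% to 9.87% lower. In fibroblast-like cells, which lay down collagen and other matrix, 4 of 5 genes with enough counts were called higher and 0 lower, where 5.10% of all genes were higher and 7.66% lower. Hspb1 had 828 CPM in inhibitor and 371 CPM in DMSO fibroblast-like cells, a ratio of 2.23 (2.18 to 2.28), which was 1.03 and not called after that subtraction. Cryab had 466 CPM in inhibitor and 186 CPM in DMSO cells, a ratio of 2.50 (2.43 to 2.58). Hspb7 (30.7 and 12.1 CPM, ratio 2.54) and Hspb2 (50.0 and 28.1 CPM, ratio 1.78) were also called higher. Hspb8 was not, with 79.5 CPM in inhibitor and 75.8 CPM in DMSO cells and a ratio of 1.05 (0.988 to 1.11).

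Different fibroblast-like clusters made up the class in each library. Clusters 1 and 2, led by C7 and by Angptl7, held 37.0% and 44.5% of inhibitor fibroblast-like cells, and 20.3% and 10.8% of DMSO ones. Clusters 6 and 8, led by Crabp2 and by Cxcl13, held 7.54% and 7.65% of inhibitor and 32.1% and 29.4% of DMSO ones. Hspb1 and Cryab were called higher in all 5 clusters with at least 20 cells in each library, with ratios of 1.58 to 2.69 for Hspb1 and 1.596 to 2.56 for Cryab. Hspb8 lay between 0.967 and 1.26 in these clusters. The Hspb2 ratio was 1.26, 1.05 and 1.08 in clusters 1, 2 and 6, below the 1.78 of the whole class. Hspb7 had enough counts in 2 of these clusters. In cluster 2 it had 53.5 CPM in inhibitor and 48.1 CPM in DMSO cells and was not called (ratio 1.11, 0.899 to 1.39), below the 2.54 of the whole class. In cluster 23, led by the cell division genes Ube2c and Cenpf, Hspb2 had 65.5 CPM in inhibitor and 31.1 CPM in DMSO cells (ratio 2.10), and Hspb7 61.1 and 35.03 CPM (ratio 1.74). RNA set free from smooth muscle cells, estimated further on, would bring 51.1 CPM of Hspb7 to cluster 23 in the inhibitor library and 47.5 CPM in the DMSO library.

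Endothelial-like cells, the second class for Hspb1, gave both directions. Hspb1 was called higher, with 2174 CPM in inhibitor and 722 CPM in DMSO cells, a ratio of 3.01 (2.91 to 3.12). Hspb8 was called lower, with 16.1 CPM in inhibitor and 30.8 CPM in DMSO cells, a ratio of 0.523 (0.378 to 0.713) from 50 and 234 UMIs. Cryab had 65.7 and 55.9 CPM and was not called in the class (ratio 1.18, 0.990 to 1.39). Among its clusters, Cryab was called higher in cluster 10 (67.4 and 30.1 CPM, ratio 2.24) and cluster 15 (68.4 and 42.8 CPM, ratio 1.597), and not in cluster 21 (51.4 and 53.2 CPM, ratio 0.966). RNA set free from smooth muscle cells, estimated further on, would bring 199 CPM of Cryab to inhibitor and 70.3 CPM to DMSO cells of cluster 15. To cluster 10 it would bring 47.5 and 7.10 CPM. Cluster 10 held 40.2% of inhibitor and 47.95% of DMSO endothelial-like cells, cluster 15 46.9% and 20%, and cluster 21 12.6% and 19.5%. With cells called doublets kept, the log2 ratio of Hspb8 was -0.10 and no longer called, against -0.76 without them, and that of Cryab was 1.84, against 0.22. Hspb2 stood at 4.83 and 16.2 CPM (15 and 123 UMIs), under the minimum for a call. Among all genes of this class 4.83% were called higher and 9.59% lower. Cluster 10, led by Gpihbp1 of capillary endothelium, had the highest Hspb1 level among the endothelial-like clusters with 20 or more cells on each side, at 4305 CPM in inhibitor and 1041 CPM in DMSO cells (ratio 4.13). Hspb8 was called lower in cluster 15, led by Cytl1 and Gja5, with 20.9 CPM in inhibitor and 42.4 CPM in DMSO cells. The same held in cluster 21, led by Tmem252 and Vwf, with 4.90 and 33.3 CPM. In cluster 21 the inhibitor value rests on 2 UMIs (ratio 0.147, 0.0174 to 0.556). Clusters 29, 31, 33 and 34 of the class held 50, 25, 15 and 11 DMSO cells and 1, 0, 0 and 0 inhibitor cells. Their DMSO cells held 16, 5, 17 and 21 Hspb8 UMIs, and their part in the class ratio was not tested.

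Schwann-like cells showed how a class ratio can exceed those of its clusters. Cryab was called higher in the class, with 3061 CPM in inhibitor and 1776 CPM in DMSO cells, a ratio of 1.72 (1.65 to 1.80). Within cluster 12 the ratio was 1.37 and within cluster 24 it was 1.45, and neither was called. Cluster 24, with the higher level, held 31.6% of inhibitor and 14.8% of DMSO Schwann-like cells. Hspb1 was called higher in the class, at 722 CPM in inhibitor and 374 CPM in DMSO cells (ratio 1.93), and in both clusters (2.05 and 2.23). After subtraction of the carried level the class ratio was 1.42 and not called. With cells called doublets kept, its log2 ratio was 2.79, against 0.94 without them. Hspb2 was not called (93.1 and 80.9 CPM, ratio 1.15, 0.895 to 1.47). In this class 5.43% of all genes were called higher and 5.87% lower.

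In immune cells 2 of the 6 genes had enough counts. Macrophage-like cells had 330.2 CPM of Hspb1 in inhibitor and 47.5 CPM in DMSO cells (ratio 6.96, 6.35 to 7.63). Cluster 22, with 71 of the inhibitor cells, held 670 of their Hspb1 UMIs and had a ratio of 16.7, and the ratio was 4.17, 5.05 and 3.83 in clusters 4, 5 and 11. Their Cryab stood at 68.7 CPM in inhibitor and 17.4 CPM in DMSO cells (ratio 3.95). Dendritic-like cells had 147 and 34.9 CPM of Hspb1 (ratio 4.21) and 32.0 and 12.6 CPM of Cryab (ratio 2.54). With cells called doublets kept, the log2 ratio of Hspb1 in dendritic-like cells was 4.51, against 1.93 without them. The share of all genes called higher was 3.27% in macrophage-like and 3.19% in dendritic-like cells, and the share called lower was 4.01% and 9.87%. Among smaller classes, T cell-like cells had 315 CPM of Hspb1 in inhibitor and 56.5 CPM in DMSO cells (91 and 63 UMIs), and neutrophil-like cells had 491 and 117 CPM (52 and 55 UMIs). Adipocyte-like cells, which store fat, had 2017 CPM of Hspb1 in 81 inhibitor cells and 691 CPM in 753 DMSO cells. In cells of clusters without a name, 8.43% of all genes with enough counts were called higher and 16% lower.

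Split further, 7 classes gave 21 clusters with 20 or more cells on each side. Hspb1 was called higher in 21 of the 21, with ratios from 1.58 to 16.7. Of all gene and cluster pairs with enough counts, 5.23% were called higher and 7.6% lower, and over single clusters the share called higher ran from 2.64% to 8.94%. Outside smooth muscle-like cells, Hspb1 was above the carried level by the same limits in 9 of 18 clusters in the inhibitor library and 14 of 18 in the DMSO library. It was at or below it in 4 inhibitor clusters, which were 5, 23, 24 and 28. Cryab was called higher in 17 of the 20 with enough counts and lower in 0. Outside smooth muscle-like cells, Cryab was above the carried level in 10 of 18 inhibitor clusters and 14 of 18 DMSO clusters. It was at or below the carried level in 3 inhibitor and 2 DMSO clusters. Hspb8 was called higher in 4 of 12 and lower in 2. Hspb6 was called higher in 3 of 5, Hspb7 in 2 of 6 and Hspb2 in 1 of 10, with Hspb2 lower in 1. The lower one was endothelial-like cluster 21, with 7.35 CPM in inhibitor and 26.9 CPM in DMSO cells from 3 and 46 UMIs.

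**Figure D4:**
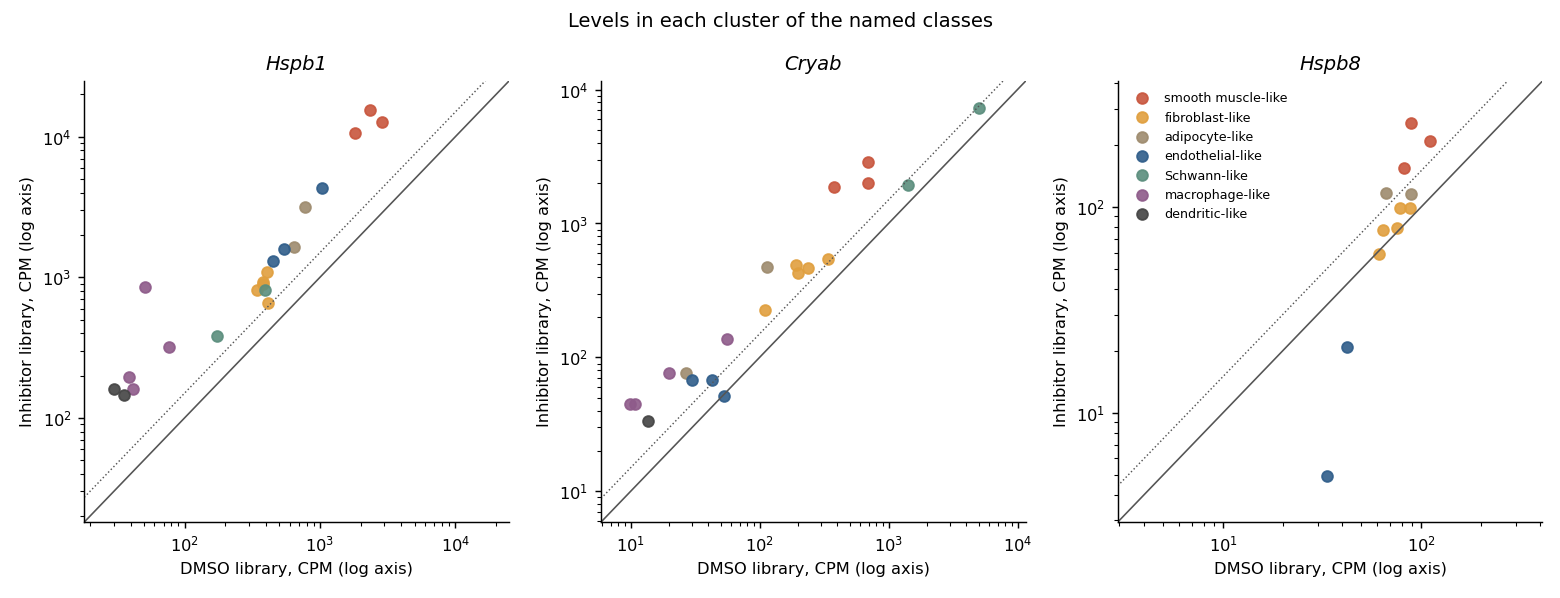
Level in the inhibitor library against level in the DMSO library (CPM, log axes) for Hspb1, Cryab and Hspb8 in each cluster with at least 20 cells per library and enough counts, coloured by class, with a solid line of equal levels and a dotted line at a ratio of 1.5. All 21 Hspb1 points lie above the dotted line, the 2 Schwann-like points of Cryab lie just under it, and the 2 endothelial-like points of Hspb8 lie furthest below the solid line.

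RNA set free from broken smooth muscle cells can enter any droplet, so each level outside smooth muscle-like cells was set beside the level such RNA would carry. The carried level was taken from the UMIs of 6 contractile genes (Acta2, Tagln, Myl9, Myh11, Tpm2 and Cnn1) in the same cells, multiplied by the ratio of the gene to those 6 genes in smooth muscle-like cells of the same library. Cells that make contractile genes themselves raise it, so for fibroblast-like and endothelial-like cells it can be too high. Free RNA of other classes is left out, so as a measure of all free RNA it can be too low. Smooth muscle-like cells held 93.4% of inhibitor but 44.0% of DMSO Hspb1 UMIs, and 78.6% against 19.6% of Hspb8 UMIs. The omission can therefore weigh unequally on the 2 libraries. Its part in the levels above the carried level and in the subtracted ratios was not tested. A level counted as above the carried level if it was at least 1.5-fold that level, with an interval that left out 1 and at least 20 UMIs. Over 9 classes and 6 genes, 16 inhibitor levels and 25 DMSO levels were above it. The share over all genes was not computed.

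Hspb1 in immune cells of the inhibitor library ran from 0.685-fold the carried level in neutrophil-like cells to 1.24-fold (1.18 to 1.31) in macrophage-like cells. Dendritic-like cells had 147 CPM where 142 CPM would be carried, T cell-like cells 315 CPM where 278 CPM would be carried, and macrophage-like cells 330.2 CPM where 265 CPM would be carried. In the DMSO library the same classes had 34.9, 56.5 and 47.5 CPM, where 29.0, 26.0 and 24.8 CPM would be carried. Neutrophil-like cells had 491 CPM in the inhibitor library, below the 716 CPM that would be carried (0.685-fold, 0.512 to 0.899). In the DMSO library they had 117 CPM where 75.3 CPM would be carried. What remained above the carried level in macrophage-like cells was 64.7 CPM for inhibitor and 22.7 CPM for DMSO cells. The contractile genes themselves were called higher in inhibitor macrophage-like cells, 6 of 6, with a median log2 ratio of 1.23 against 0.01 over all genes. In cluster 22, led by Retnla and Lyz1 with genes of dividing cells, Hspb1 had 858 CPM in 71 inhibitor cells where 517 CPM would be carried. The 109 DMSO cells of cluster 22 had 51.5 CPM where 57.2 CPM would be carried. In inhibitor cells of macrophage-like clusters 4, 5 and 11, Hspb1 had 322, 195 and 160 CPM, where 276, 207 and 155 CPM would be carried. In their DMSO cells it had 77.3, 38.7 and 41.8 CPM, where 29.0, 15.1 and 22.5 CPM would be carried.

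Other levels lay far above what smooth muscle RNA would carry. Cryab in Schwann-like cells was 42.6-fold the carried level in inhibitor and 37.1-fold in DMSO cells. Hspb8 was 9.47-fold and 23.0-fold in fibroblast-like cells, and 9.30-fold and 26.7-fold in adipocyte-like cells of the same 2 libraries. Hspb1 in endothelial-like cells was 2.84-fold the carried level in inhibitor and 5.24-fold in DMSO cells. In endothelial-like cluster 10 it was 4305 CPM where 269.8 CPM would be carried in the inhibitor library, and 1041 CPM where 22.6 CPM would be carried in the DMSO library. Cluster 15 lay nearer the carried level, with 1299 CPM where 1128 CPM would be carried in inhibitor cells. Its DMSO cells had 454 CPM where 224 CPM would be carried. In cluster 21 inhibitor cells had 1594 CPM where 233 CPM would be carried, and DMSO cells 545 CPM where 98.8 CPM would be. Cryab in inhibitor endothelial-like cells, by contrast, was 0.487 of the carried level. Hspb7 outside smooth muscle-like cells was above the carried level in 1 of 9 inhibitor classes, fibroblast-like at 2.17-fold, and in 0 of 9 DMSO classes, where the highest was 1.38-fold.

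Subtracting the carried level changed several ratios between libraries. For Hspb1 in fibroblast-like cells, 301 CPM remained in inhibitor and 293 CPM in DMSO cells, a ratio of 1.03 in place of 2.23. In endothelial-like cells 1409 and 584 CPM remained (ratio 2.41), and in Schwann-like cells 314 and 221 CPM (ratio 1.42). For Cryab in fibroblast-like cells 374 CPM remained in inhibitor and 162 CPM in DMSO cells (ratio 2.31), and in Schwann-like cells 2989 and 1728 CPM (ratio 1.73). For Hspb8 in endothelial-like cells 3.91 CPM remained in inhibitor and 24.99 CPM in DMSO cells.

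**Figure D5:**
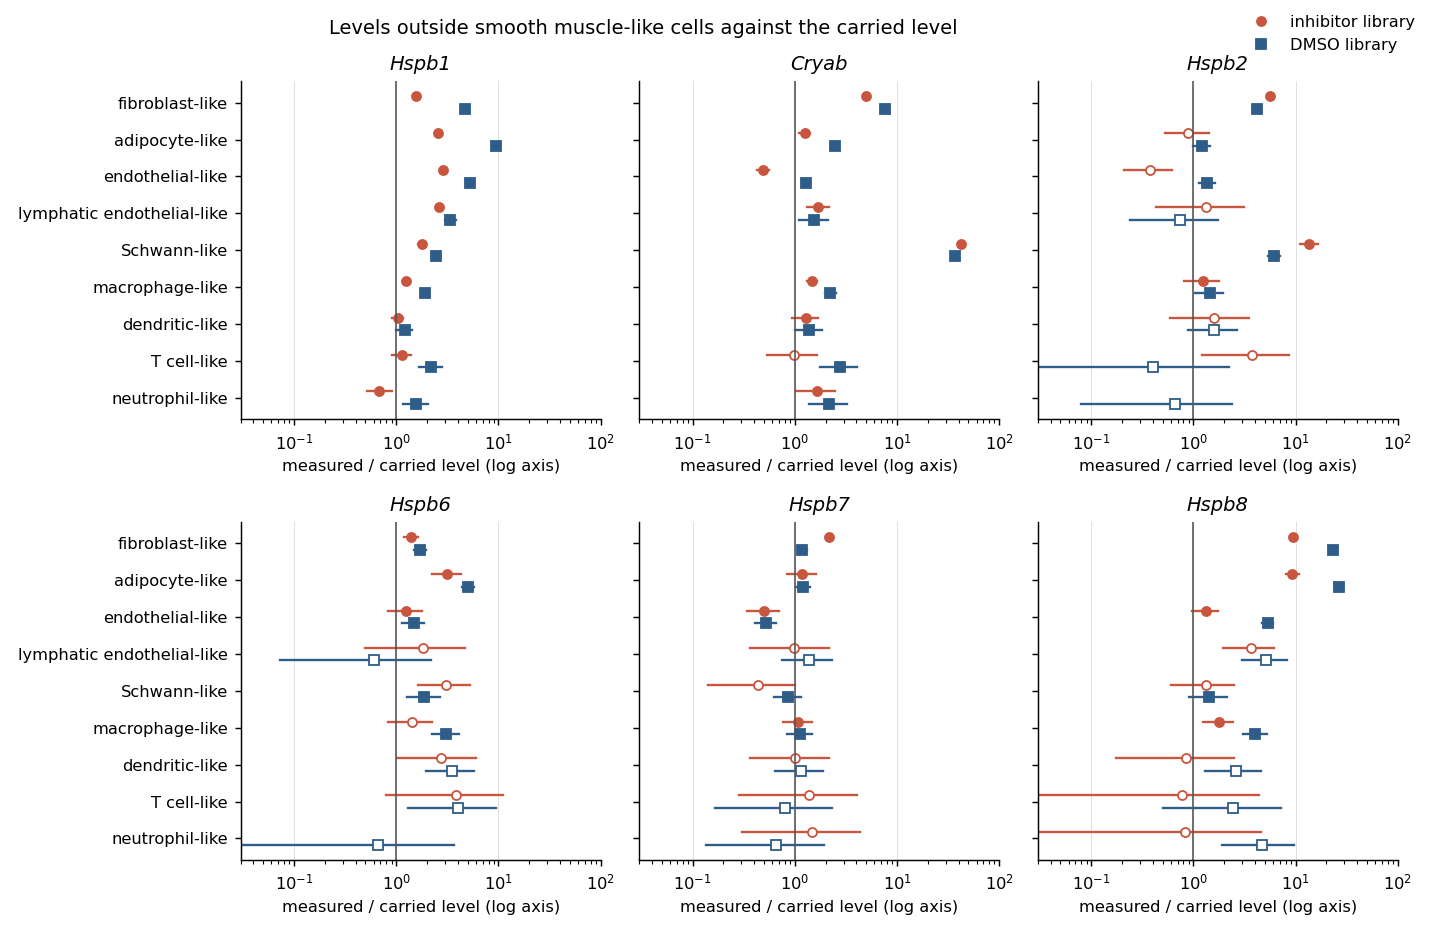
Measured level of each gene divided by the level carried with smooth muscle RNA (log axis, line at 1) in 9 classes, inhibitor (circles) above DMSO (squares), with exact 95% counting intervals of the measured count; open symbols rest on fewer than 20 UMIs and classes with no UMI are left blank. Cryab in Schwann-like cells lies near 40 (42.6 and 37.1), Hspb8 in fibroblast-like and adipocyte-like cells between 9.30 and 26.7, and Hspb7 close to 1 in most classes.

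The chaperones that take over from small heat shock proteins were higher together in inhibitor smooth muscle-like cells. Of 13 genes of the HSP70, HSP110 and HSP40 list with enough counts, 10 were called higher and 0 lower, where 3.44% of all genes were called higher and 8.04% lower. Their median log2 ratio was 1.84, against -0.04 over all genes. Hspa1b had 1611 CPM in inhibitor and 197 CPM in DMSO cells (ratio 8.16), and its near-identical copy Hspa1a 3095 and 427 CPM (ratio 7.25). Reads of such copies can be split between them by the counting. Hsph1, a nucleotide exchange factor of HSP70, had 1090.0 and 215 CPM (ratio 5.06), and Dnaja4, an HSP40 co-chaperone, 83.2 and 17.1 CPM (ratio 4.86). Of 10 genes of the HSP90 and chaperonin list, 10 were called higher and 0 lower (median log2 ratio 1.66). Ahsa2, an activator of HSP90, led with a ratio of 4.50, followed by 4.20 for Hsp90aa1, 4.09 for the mitochondrial chaperonin Hspd1 and 3.86 for its partner Hspe1.

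Partners of the small heat shock proteins differed less. Among all genes of this class with enough counts, 3.44% were called higher and 8.04% lower, and lists with 1 called gene cannot be told apart from that share. Of 10 genes in the list of partners and kinases, 1 was called higher and 0 lower (median log2 ratio -0.02). That gene was Bag3, the co-chaperone that joins Hspb8 to HSP70, with 311 CPM in inhibitor and 97.3 CPM in DMSO cells, a ratio of 3.20 (3.01 to 3.40). Hsf1 had 26.7 CPM in inhibitor and 21.4 CPM in DMSO cells (ratio 1.248, 1.09 to 1.44). Of 10 cytoskeletal genes whose proteins are bound by the family, 1 was called higher and 0 lower (median 0.12). It was Flnc, filamin C, with 217 CPM in inhibitor and 128 CPM in DMSO cells (ratio 1.70). Of the 6 contractile genes, 1 (Cnn1) was called higher and 0 lower (median 0.44). The other genes of the small heat shock family were scarce, since Cryaa, Hspb3 and Odf1 had 0 UMIs in smooth muscle-like cells of both libraries and Hspb9 had 1. Hspb11 had 30.3 CPM in inhibitor and 32.5 CPM in DMSO cells (ratio 0.933). With Hsp25-ps1 higher, 1 of the 2 of that list with enough counts was called higher and 0 lower (median 1.26).

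Genes that respond within minutes to tissue dissociation were given beside these values. Of 15 immediate early genes, 2 were called higher and 8 lower in inhibitor smooth muscle-like cells (median log2 ratio -0.62). Among all genes 3.44% were called higher there and 8.04% lower. Atf3 (ratio 1.95) and Jund (1.56) were higher. The 4 lowest ratios were 0.377 for Fosb, 0.444 for Klf2, 0.476 for Junb and 0.507 for Fos. Their part in the heat shock gene ratios was not tested.

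Hspa1a was called higher in none of the 5 further classes, in each of which Hspb1 was, both as measured. After subtraction of the carried level, Hspb1 was called higher in macrophage-like and endothelial-like cells alone. Hspa1a was called lower in macrophage-like cells, with 183 CPM in inhibitor and 369.7 CPM in DMSO cells (ratio 0.494). In dendritic-like cells it had 81.2 CPM in inhibitor and 532 CPM in DMSO cells (ratio 0.153), and in Schwann-like cells 312 and 628 CPM (ratio 0.496). Over the HSP70, HSP110 and HSP40 list, 4 of 11 genes were called higher and 0 lower in fibroblast-like cells, led by Hsph1 (2.61), Hspa4l (1.965), Hspa8 (1.75) and Hspa1b (1.66). In macrophage-like cells 3 of 11 were higher, namely Hsph1 (2.005), Hspa4l (1.72) and Hspa8 (1.505), and Hspa1a alone was lower. In dendritic-like cells 2 of 11 were higher, namely Hspa4l (1.57) and Hsph1 (1.51), and 4 were lower, which besides Hspa1a were Hspa1b (0.324), Dnajb1 (0.464) and Hspa2 (0.563). Endothelial-like cells had 4 of 12 higher and 0 lower, namely Hspa4l (2.21), Hsph1 (2.21), Hspa1b (1.76) and Dnaja4 (1.68). Schwann-like cells had 2 of 12 higher, namely Dnaja1 (1.56) and Hspa8 (1.54), and 1 lower, Hspa1a. Among all genes, 3.19% to 5.43% per class were called higher and 4.01% to 9.87% lower.

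The HSP90 and chaperonin list, by contrast, was mostly higher in all 5 of these classes, with 0 genes lower. Of its 10 genes, 9 were called higher in fibroblast-like cells, led by Fkbp4 (2.27), Cacybp (2.16), Stip1 (1.81) and Ahsa2 (1.65). In macrophage-like cells 8 were higher, led by Fkbp4 (1.93), Stip1 (1.82), Ahsa2 (1.74) and Hsp90ab1 (1.68). In dendritic-like cells 6 were higher, led by Fkbp4 (2.13), Hspe1 (2.11), Hsp90ab1 (1.74) and Stip1 (1.67). Endothelial-like cells had 9 higher, led by Stip1 (2.15), Hspe1 (2.02), Hsp90aa1 (1.98) and Hspd1 (1.94), and Schwann-like cells 8, led by Ahsa2 (2.71), Cacybp (2.17), Ahsa1 (2.09) and Stip1 (2.01). Immediate early genes were called lower in 8 of 15 cases in fibroblast-like, 9 in macrophage-like, 13 in dendritic-like, 8 in endothelial-like and 9 in Schwann-like cells, with 0 higher. These counts stand beside 3.19% to 5.43% of all genes per class called higher and 4.01% to 9.87% called lower.

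Genes whose levels over classes were most like each member's were found by Pearson's correlation of log2 CPM over 20 points, the 10 classes in each of the 2 libraries. The search covered 7642 genes with at least 50 CPM in 1 point, and the points share libraries and are not independent. Hspb1 was most like Fhl1 (r = 0.89), Myh10 (0.88) and Pls3 (0.88). Hspb8 was most like Ptprd (0.94), Fhl1 (0.91) and Vasn (0.91), so that Fhl1, which encodes a LIM-domain protein of muscle, was named for both. Hspb7 was most like Tpm2 (0.97), one of the contractile genes, then Nrtn (0.96) and Susd5 (0.96). Hspb6 was most like Rbpms2 (0.94), Myocd (0.93) and Bdnf (0.93), where Myocd encodes myocardin, a coactivator of contractile genes. Cryab was most like Sema3c (0.94), Shisa4 (0.94) and Ntrk3 (0.93), and Hspb2 most like Efhd1 (0.94), St5 (0.94) and Map1a (0.93). Among the 6 genes themselves the highest correlation was that of Cryab with Hspb2 (0.86), and the lowest that of Cryab with Hspb8 (0.49).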

How the data were processed

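Single cells from aortic aneurysm tissue were read with the 10x 3' v3 chemistry, per the labels' protocols, and each of the 2 libraries gave 1 matrix of UMI counts. The UMI counts were deposited by the authors as whole numbers per gene and barcode, and per the file headers they came from Cell Ranger 6.1.1. GRCm38 and Seurat are named in the submitters' processing notes. Whether counting used strand or intronic reads is not stated. All 55450 gene identifiers matched GENCODE M21.

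Cells with fewer than 200 genes (10 inhibitor, 18 DMSO) or over 20% mitochondrial UMIs (282 and 443) were removed, and then doublets called by Scrublet in scanpy (440 and 253). The automatic doublet threshold called 0 cells in the DMSO library, and the inhibitor library's threshold of 0.214 was then used for both. Kept cells had medians of 8991 UMIs (inhibitor) and 7935 UMIs (DMSO). Both libraries were clustered together with scanpy 1.11.5 (Python 3.11.15) from 2000 variable genes, 30 principal components, 15 neighbours and Leiden resolution 1 (leidenalg 0.10.2), which gave 35 clusters. The markers and the genes of the lists were left out before the variable genes were chosen. Clusters with a median under 1000 UMIs were left unnamed. Any other was named where at least 3 markers of a class were enriched, with a mean log2 enrichment of at least 1.5 over its markers. Its 10 leading genes could also not hold 2 or more markers of another class that outnumbered its own. That limit of 2 was set after clusters of other settings had been seen, and the names are the same with a limit of 1. Unnamed cells (499 and 729) entered no class.

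For each class, the counts of a library's cells were added up and divided by their total to give CPM. Intervals are exact Poisson for CPM, exact Clopper-Pearson for shares, and exact conditional binomial for ratios (scipy 1.17.1). Shares at 2000 UMIs are the expectation over draws from each cell. The log2 ratio adds 5 CPM to both sides. The calculation was tested on simulated counts. The genes, lists and markers were chosen with earlier results of these data known. Named genes are the 6 family members, up to 4 called genes in each direction per list with the largest change, the 3 likest genes per member, the leading genes of clusters, and Acta2, Myh11, Hsp25-ps1, Bag3 and Hsf1. Clusters 23 and 24 and others outside smooth muscle-like cells were singled out after their values were seen. Promoter sequences came from RefSeq on GRCm38.p6, with entries for 4 of the 6 genes.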

Additional observations from a re-analysis of the deposited data

Results flagged for a closer look

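Hspb8 went opposite ways in smooth muscle-like and endothelial-like cells. Its log2 ratio of inhibitor to DMSO CPM was 1.10 in smooth muscle-like cells, with 200.3 CPM in inhibitor and 91.0 CPM in DMSO cells. In endothelial-like cells the log2 ratio was -0.76, with 16.1 CPM in inhibitor and 30.8 CPM in DMSO cells. With cells called doublets kept it was -0.10, and the lower call was lost. Endothelial-like clusters 29, 31, 33 and 34 held 50, 25, 15 and 11 DMSO cells and 1, 0, 0 and 0 inhibitor cells. With 1 library per group, the difference between the classes was not tested.

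Cells in clusters that received no name, 499 inhibitor and 729 DMSO cells, entered no comparison, and 5 of the 6 genes met the rule for higher in them, where 8.43% of all genes with enough counts did and 16% met the rule for lower. Clusters with a median under 1000 UMIs were left unnamed by rule. The median depth of the unnamed cells was 779 UMIs in inhibitor and 824 UMIs in DMSO cells, under that of named cells in part for that reason. The ratio was 3.85 for Hspb1 (3298 CPM in inhibitor and 857 CPM in DMSO cells) and 2.94 for Cryab (728 and 248 CPM). It was 2.45 for Hspb7 (143 and 58.4 CPM), 1.82 for Hspb6 (47.1 and 25.9 CPM) and 1.74 for Hspb2 (125 and 71.7 CPM). Hspb8 stood at 75.5 CPM in inhibitor and 68.7 CPM in DMSO cells, a ratio of 1.10. Smooth muscle was the best or second marker class of unnamed clusters 7, 18 and 26, and not of clusters 25 and 32. The carried level was not estimated for unnamed cells, so the part of free smooth muscle RNA in these ratios was not tested.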

How the results depend on the processing

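The count of 3 genes called higher and 0 lower in smooth muscle-like cells was the same in all alternatives run for it but 1, cluster 9 alone, where it was 4 and 0 with Hspb6. The log2 ratio there ran from 2.15 to 2.72 for Hspb1, 1.54 to 2.29 for Cryab and 0.88 to 1.48 for Hspb8 over the alternatives, from 0.21 to 0.62 for Hspb6 and 0.07 to 0.31 for Hspb7, and from -0.05 to 0.28 for Hspb2, which was below 0 in clusters 0 and 9 alone. The 5 genes highest in smooth muscle-like cells were 5 in each library under all alternatives run for that count. With each contractile gene alone as the tracer, 15 to 20 inhibitor levels and 25 to 30 DMSO levels were above the carried level. In the other 5 classes, 11 pairs of gene and class called higher became 17 with doublets kept and 6 with the carried level subtracted. After subtraction a call used no interval and no minimum of UMIs. The 1 pair called lower became 2 with at least 1000 genes per cell, 3 with no minimum, and 0 with doublets kept or with a fold of at least 2. Hspb1 in dendritic-like cells turned to a log2 ratio of -0.14 with the carried level subtracted, against 1.93 without, where 4.93 CPM in inhibitor and 5.96 CPM in DMSO cells remained, under the minimum for a call. Of the 6 genes, 5 had a higher expected share of cells in the inhibitor library with 2000 UMIs per cell, and 3 with 1000 UMIs. The cause of these shifts was not tested. Removing barcodes found in both libraries, and leaving out the smooth muscle-like cluster led by Hspb1, were chosen after seeing the data. No paired analysis was possible because each group has 1 library, and for the same reason no replicate could be left out.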
